A study of Mus musculus with 6 samples.

Results

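The enzymes of de novo purine synthesis were followed in mouse liver as 10 listed genes, each represented by every probe set that the array platform's annotation assigns to that gene symbol alone. This gave 19 of the 45101 probe sets on the array, for 9 of the 10 genes. Impdh2 was not analysed here. Of the 19 probe sets, 18 passed a filter on dim signals (mean log2 signal over the 6 arrays of at least 5.50). The brightest probe set of each gene entered a fit across 12598 genes, so 9 member genes were tested.

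Total RNA from the livers of 6 male mice was read on Affymetrix 3′ expression arrays, a single array for each mouse. The 3 ChLO mice carried floxed alleles of Chrebp, the gene now named Mlxipl, together with a Cre transgene under control of the hepatocyte promoter of albumin, so other liver cells should keep the gene. The 3 WT mice were labelled wild type, and the labels do not say whether they were littermates or carried the floxed alleles or Cre. All 6 mice, aged 12 weeks, were fed over 1 week on a diet of 60% sucrose. Setting the groups side by side shows how liver transcripts stand when the carbohydrate-responsive transcription factor ChREBP is deleted under a sucrose load.

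De novo synthesis builds the purine ring on ribose phosphate. It starts from phosphoribosyl pyrophosphate (PRPP), draws nitrogen from glutamine, glycine and aspartate and carbon from folates, and ends at inosine monophosphate (IMP). From IMP a branch leads to AMP through adenylosuccinate, and another leads to GMP through xanthosine monophosphate. Liver is a main site of this pathway in mammals and supplies purines to other tissues.

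Promoter windows of 3 members are printed because Paics and Ppat form a gene pair read from opposite strands and because Atic and Paics were the members whose windows held the E-box core CACGTG, a sequence bound by MYC and, as part of a longer element, by ChREBP. The windows are from RefSeq (GRCm38.p6) and run from 250 bases before the annotated start site to 50 bases after it, 5′ to 3′ on the gene's strand. Capitals mark CACGTG, which reads the same on both strands, and the GC box GGGCGG or its reverse complement.
Atic, chr1:71556906-71557205, plus strand: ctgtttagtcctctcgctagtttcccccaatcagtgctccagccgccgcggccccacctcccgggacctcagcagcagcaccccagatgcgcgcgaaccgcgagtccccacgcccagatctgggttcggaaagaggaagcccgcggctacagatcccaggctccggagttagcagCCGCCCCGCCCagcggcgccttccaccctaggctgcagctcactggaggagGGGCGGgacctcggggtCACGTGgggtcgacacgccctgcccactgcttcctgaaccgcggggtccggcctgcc
Paics, chr5:76951052-76951351, plus strand: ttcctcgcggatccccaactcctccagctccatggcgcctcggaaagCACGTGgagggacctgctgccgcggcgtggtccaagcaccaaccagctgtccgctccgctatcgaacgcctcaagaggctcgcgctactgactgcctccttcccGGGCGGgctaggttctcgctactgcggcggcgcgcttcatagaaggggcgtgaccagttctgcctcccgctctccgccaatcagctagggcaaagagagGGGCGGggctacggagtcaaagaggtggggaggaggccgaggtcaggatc
Ppat, chr5:76951529-76951828, minus strand: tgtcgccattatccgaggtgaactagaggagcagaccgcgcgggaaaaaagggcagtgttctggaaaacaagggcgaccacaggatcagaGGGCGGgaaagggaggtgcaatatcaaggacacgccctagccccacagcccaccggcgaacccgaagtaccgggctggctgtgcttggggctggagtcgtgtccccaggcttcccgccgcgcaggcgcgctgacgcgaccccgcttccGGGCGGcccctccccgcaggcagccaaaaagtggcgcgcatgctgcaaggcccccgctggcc
The Ppat and Paics start sites lie 276 bases apart and the transcripts point at each other, so their 5′ ends overlap over 277 bases.

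Windows were found for 8 of the 9 measured members, 9 windows in all since Impdh1 had 2, and none for Pfas. CACGTG stood in 2 of the 9 windows, against 7.15% of the 32851 windows of the whole table. In Atic its first base lay 7 bases before the start site and in Paics 203 bases before it. GGGCGG stood in all 9 windows, against 35.7% of all windows, and 2 of its 3 matches in Atic overlap each other. These matches are a description of letters in a window. No binding was measured.

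Across the 9 genes no difference between ChLO and WT passed the test. With limma and Benjamini-Hochberg adjustment over 12598 genes, 0 members had an adjusted p under 0.05, as did 0% of all genes tested, and the smallest adjusted p of a member was 0.509. At an unadjusted p under 0.05 there was 1 member, Atic, higher in ChLO, where 8.96% of all genes passed in either direction (5.46% higher and 3.5% lower). The ChLO and WT arrays did not overlap for 2 of the 9 genes, Atic above and Impdh1 below, against 15.2% of all genes (9.04% above and 6.19% below). The members' differences ran from -0.55 to 0.79 with a median of 0.25, and the median over all genes was 0.06. The median size of a difference, whatever its sign, was 0.30 for the members and 0.26 for all genes. By sign, 5 members were higher in ChLO and 4 lower, against 56.5% and 43.5% of all genes, and 7 were higher with scaling to the spike-in controls, which raised the median of all genes by 0.25. Each difference is the ChLO mean minus the WT mean in log2 units.

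**Figure D1:**
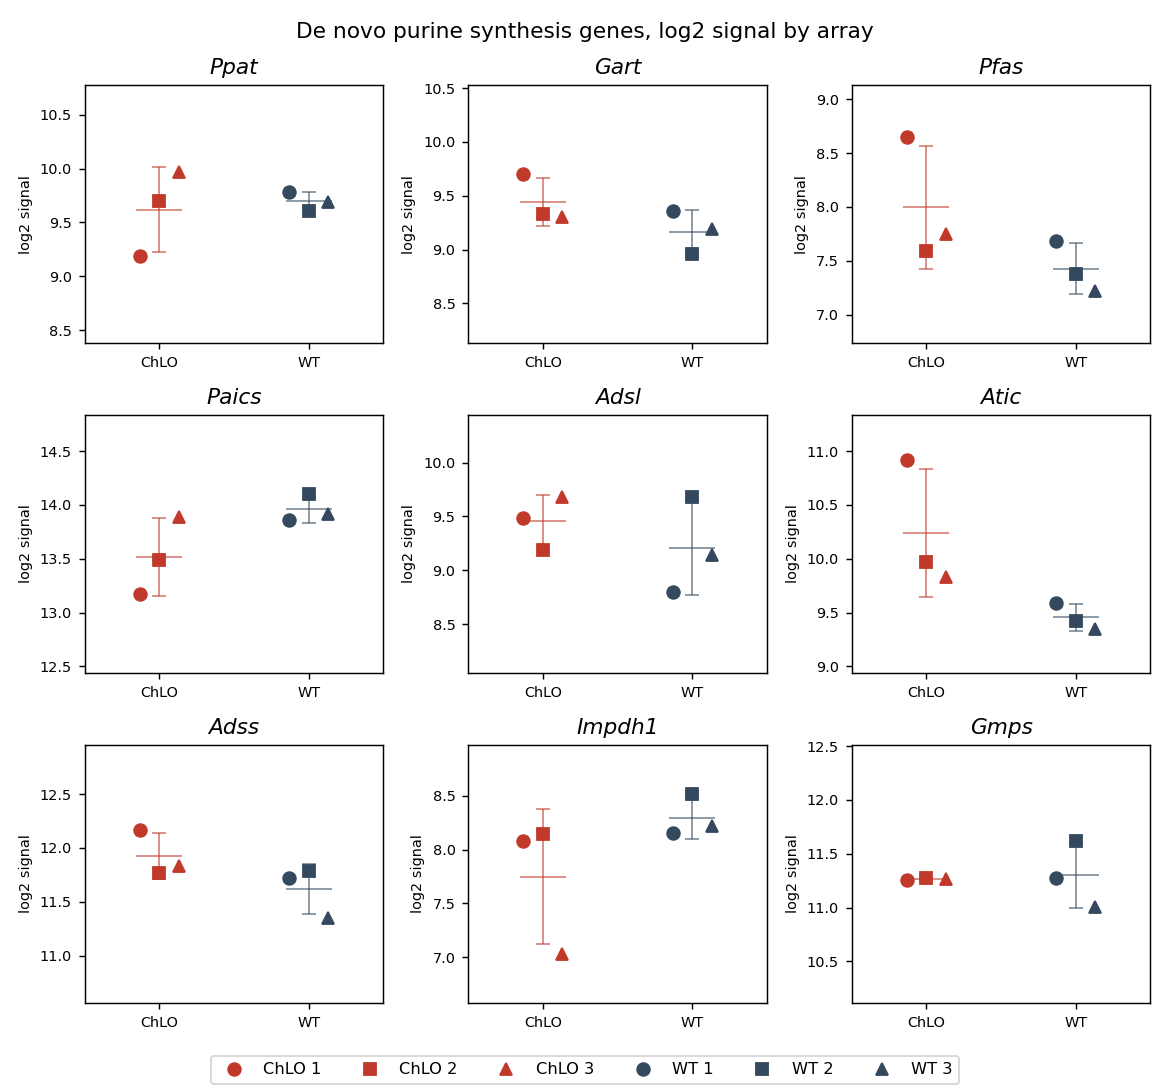
Log2 signal of the brightest probe set of each gene in the 3 ChLO and 3 WT arrays, with the group mean (long dash) and SD (bars), on vertical axes that each span the same number of log2 units. All 3 ChLO points lie above the WT points for Atic and below them for Impdh1, and the groups overlap in the other panels.

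Ppat makes the opening step and Gart and Pfas make early ones, and the groups overlapped for all 3 genes. Ppat, the amidophosphoribosyltransferase that commits PRPP to the pathway, had log2 signals of 9.19, 9.70 and 9.97 in the livers of ChLO 1, 2 and 3, against 9.78, 9.61 and 9.69 in those of WT 1, 2 and 3. ChLO 1 was the lowest and ChLO 3 the highest of all 6 arrays, so the ChLO mice lay on both sides of WT. The means were 9.62 ± 0.40 in ChLO and 9.70 ± 0.09 in WT (SD, n = 3 each), a difference of -0.08 (SE 0.23, limma adjusted p = 0.929). The 95% interval of that difference allows Ppat to be up to 1.52-fold lower or 1.37-fold higher in ChLO. Its other probe set past the filter differed by 0.04, and the third, with a mean of 4.25, was under the filter.

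Gart, a multifunctional enzyme that adds glycine and a formyl group from folate, had log2 signals of 9.70, 9.33 and 9.30 in ChLO livers, against 9.36, 8.96 and 9.19 in WT livers. The groups overlapped because WT 1 lay above ChLO 2 and ChLO 3, and the difference was 0.28 (SE 0.20, limma adjusted p = 0.692). A second Gart probe set also differed by 0.28, while the dimmer pair, with means of 7.59 and 7.53, differed by -0.10 and 0.01.

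Pfas, the glutamine-using synthase that acts between the steps of Gart, had log2 signals of 8.65, 7.59 and 7.75 in ChLO livers, against 7.69, 7.38 and 7.22 in WT livers. ChLO 1 stood apart from the other 5 arrays, and ChLO 2 lay below WT 1. The difference was 0.57 (SE 0.34, limma adjusted p = 0.636), and it was 0.24 without ChLO 1. This gene had 1 probe set.

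Paics, which carboxylates the ring precursor and then attaches aspartate, had lower mean signals in ChLO than in WT at all 3 of its probe sets. The brightest had log2 signals of 13.17, 13.49 and 13.89 in ChLO livers, against 13.86, 14.10 and 13.91 in WT livers. ChLO 1 and ChLO 2 lay below every WT array, while ChLO 3 lay within the WT range. The means were 13.52 ± 0.36 in ChLO and 13.96 ± 0.13 in WT (SD, n = 3 each), a difference of -0.44 (SE 0.21, limma adjusted p = 0.590), or 1.36-fold lower.

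The other Paics probe sets differed by -0.35 and -0.49. That with -0.35 had log2 signals of 12.43, 12.59 and 12.85 in ChLO livers, against 13.03, 12.94 and 12.93 in WT livers, without overlap. It was 1 of 3 member probe sets without overlap among the 18 past the filter, against 14.2% of the 27022 probe sets past it. In the fit over probe sets 0 of the 18 passed, against 0.0296% (8) of all, and 1 had an unadjusted p under 0.05, against 8.02% of all. The smallest adjusted p of a member there was 0.589. Without ChLO 3 the Paics difference was -0.63 (limma adjusted p = 0.118), without ChLO 1 it was -0.27, and with spike-in scaling it was -0.19. On the deposited values the hepatocyte markers were likewise lower in ChLO 1 and ChLO 2 than in ChLO 3. Their list median lay at -0.35, -0.40 and -0.16 relative to WT in ChLO 1, 2 and 3 and at -0.11 to 0.15 in the WT arrays. With quantile normalization the median difference of the markers was -0.02 and the Paics difference was -0.33. With spike-in scaling that median was -0.06. The part of these markers in the Paics values was not tested, and in bulk liver fewer cells of a type and less RNA per cell cannot be told apart.

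Paics and Ppat, the gene pair, did not deviate alike in all arrays. In ChLO 1 both were below the WT mean, by 0.79 for Paics (-0.79) and by 0.51 for Ppat (-0.51). In ChLO 2 Paics was at -0.47 and Ppat at 0.01, and in ChLO 3 Paics was at -0.07 and Ppat at 0.27. Paics thus lay below Ppat on this scale in every ChLO array, by 0.28 to 0.48 log2 units. In the WT arrays Paics minus Ppat was -0.18, 0.23 and -0.05, so it lay below Ppat in 2 of them as well, and this difference was not tested between groups.

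**Figure D2:**
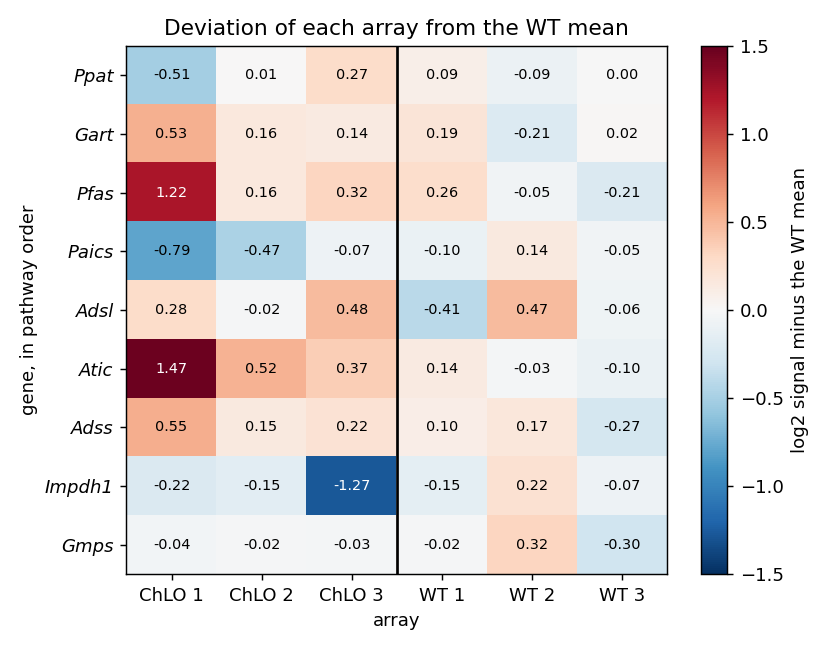
Log2 signal of each array minus the mean of the 3 WT arrays, for the 9 genes in the order of the pathway with the AMP branch before the GMP branch (red above the WT mean, blue below it). The darkest cells are Atic and Pfas in ChLO 1, at 1.47 and 1.22, and Impdh1 in ChLO 3, at -1.27.

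The last steps to IMP fall to Adsl and Atic. Adsl, the lyase that releases fumarate both on the way to IMP and on the way to AMP, had log2 signals of 9.48, 9.19 and 9.68 in ChLO livers, against 8.80, 9.68 and 9.14 in WT livers. The spread within WT was wider than the difference of 0.25 (SE 0.26, limma adjusted p = 0.772). Without WT 1, the lowest array, the difference was 0.04.

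Atic, which adds the last formyl group and closes the ring to give IMP, had the highest difference of the 9 genes. It had log2 signals of 10.92, 9.97 and 9.83 in ChLO livers, against 9.59, 9.42 and 9.35 in WT livers, so every ChLO array lay above every WT array. The means were 10.24 ± 0.59 in ChLO and 9.45 ± 0.12 in WT (SD, n = 3 each). The difference was 0.79 (SE 0.29), 1.73-fold higher, with an unadjusted p of 0.0281 and a limma adjusted p of 0.509. Without ChLO 1 it was 0.45, and without ChLO 3 it was 0.99 (adjusted p = 0.117).

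A dimmer Atic probe set went the other way. It had log2 signals of 8.47, 7.62 and 7.48 in ChLO livers, against 8.00, 8.02 and 8.29 in WT livers. On it ChLO 1 was again the highest array, but ChLO 2 and ChLO 3 were the lowest, and the difference was -0.25 (SE 0.31). With the mean of both probe sets the Atic difference was 0.27 (limma adjusted p = 0.791). Where on the transcript each probe set lies was not analysed here.

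**Figure D3:**
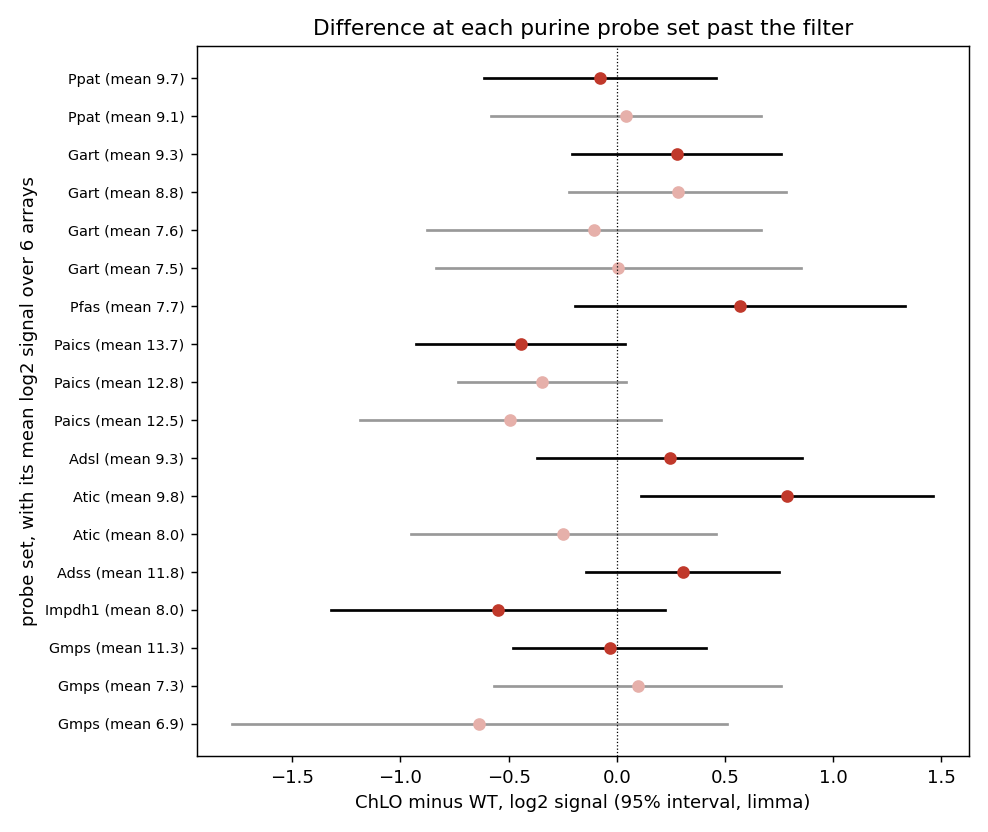
Difference between the group means (points) with its 95% limma interval (lines) for the 18 member probe sets past the filter; the brightest probe set of each gene is drawn darker. The interval lies above 0 for the brighter Atic probe set alone, the 3 Paics points lie below 0, and the pair of Atic points lie on opposite sides of 0.

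Past IMP, the mean of Adss was higher in ChLO, that of Impdh1 was lower and Gmps differed by -0.03, none of them past the test. Adss, the adenylosuccinate synthase that opens the AMP branch, had log2 signals of 12.17, 11.77 and 11.84 in ChLO livers, against 11.72, 11.79 and 11.35 in WT livers. WT 2 lay between ChLO 2 and ChLO 3, and the difference was 0.30 (SE 0.19, limma adjusted p = 0.644).

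Impdh1, an IMP dehydrogenase of the GMP branch, had log2 signals of 8.08, 8.14 and 7.03 in ChLO livers, against 8.15, 8.52 and 8.22 in WT livers. The groups did not overlap, but ChLO 2 and WT 1 were nearly level and ChLO 3 stood far below the rest. The means were 7.75 ± 0.63 in ChLO and 8.30 ± 0.20 in WT (SD, n = 3 each), a difference of -0.55 (SE 0.34, limma adjusted p = 0.643). It was -0.19 without ChLO 3. This gene had 1 probe set.

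Gmps, the synthetase that completes GMP, was the member whose ChLO arrays lay closest together. It had log2 signals of 11.26, 11.277 and 11.266 in ChLO livers, against 11.277, 11.619 and 11.004 in WT livers, so all 3 ChLO arrays lay inside the WT range. The difference was -0.03 (SE 0.19, limma adjusted p = 0.965), with a 95% interval from 1.39-fold lower to 1.33-fold higher in ChLO. Its dimmer probe sets differed by 0.10 and by -0.63, and the second of these rested on ChLO 1, at 5.48 against 6.96 and 7.37 in the other ChLO arrays.

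The ChLO mice were unlike one another, and ChLO 1 was the farthest of the 3 from the WT mean for 7 of the 9 members, against 49.98% of all genes. ChLO 3 was the farthest for the other 2 members, Adsl and Impdh1. The SD was wider in ChLO than in WT for 6 of the 9 members and for 61.9% of all genes. Mlxipl, the deleted gene, had log2 signals of 10.34, 11.22 and 11.48 in the livers of ChLO 1, 2 and 3, against 12.61, 12.56 and 12.59 in WT livers, so ChLO 1 had the lowest signal of the deleted gene as well. The difference was -1.57 (SE 0.28, limma adjusted p = 0.185). The 3′ minus 5′ signal of Actb, a sign of RNA integrity, was 0.84, 1.03 and 1.46 in ChLO livers, against 1.13, 1.38 and 1.28 in WT livers, so it was lowest in ChLO 1. That of Gapdh was -0.25, -0.20 and -0.14 in ChLO livers, against -0.31, -0.14 and -0.13 in WT livers, so it was lowest in WT 1. The part of either in the values was not tested.

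Some marker genes of other cell types also stood apart in ChLO 1 and ChLO 2. The list median of the 11 stellate and fibroblast markers lay at 1.85, 1.91 and -0.03 relative to WT in the livers of ChLO 1, 2 and 3, against -0.30 to 0.31 in WT livers. On the summed signal of that list, ChLO ranged from 13.14 to 14.81 log2 units and WT from 12.89 to 13.55. For 10 of 12 myeloid and Kupffer cell markers tested the sum was 13.26 to 14.28 in ChLO and 13.36 to 13.45 in WT, and for 6 of 7 cholangiocyte markers 8.60 to 10.70 in ChLO and 7.99 to 8.73 in WT. The 8 endothelial markers summed to 12.41 to 12.88 in ChLO and 12.30 to 12.61 in WT. Of 10 lymphocyte markers only 3 passed the filter. Every tested member, whether above or below the WT mean, lay farther from it in ChLO 1 than in ChLO 2. The myeloid list median was 1.29 in ChLO 1 and 0.84 in ChLO 2. The stellate, endothelial and cholangiocyte list medians were higher in ChLO 2 than in ChLO 1, at 1.91, 0.45 and 1.11 against 1.85, 0.22 and 1.01. On the summed signal the stellate and endothelial lists kept that order. The cholangiocyte list did not, at 9.80 in ChLO 2 and 10.70 in ChLO 1. The markers' part in the members' values was not tested.

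The liver label was met by the hepatocyte markers, whose 10 tested genes of 12 summed to 18.56 to 18.84 log2 units in ChLO and 18.88 to 19.12 in WT. All 10 were lower in ChLO with a median of -0.31, but 6 with quantile normalization (median -0.02) and 8 with spike-in scaling. On the deposited values 7 lay below WT without overlap, against 6.19% of all genes, and overlap was not counted with the other scalings. Apob, the main protein of VLDL, Hnf4a, a hepatocyte transcription factor, and Serpina1c, a protease inhibitor, differed by -0.43, -0.36 and -0.36. Of 11 tested proliferation markers, 9 were higher and 2 lower in ChLO with a median of 0.66, where 56.5% of all genes were higher. The list median had no common direction over the ChLO arrays. It was 1.42, 1.21 and -0.87 in ChLO livers, against 0.66, -0.60 and -0.16 in WT livers. Rrm1, a subunit of ribonucleotide reductase, differed by 0.66 (SE 0.26), Rrm2, its partner, by -1.15 (SE 0.53) and Pcna, the replication clamp, by 0.47 (SE 0.24), with no adjusted p under 0.535.

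**Figure D4:**
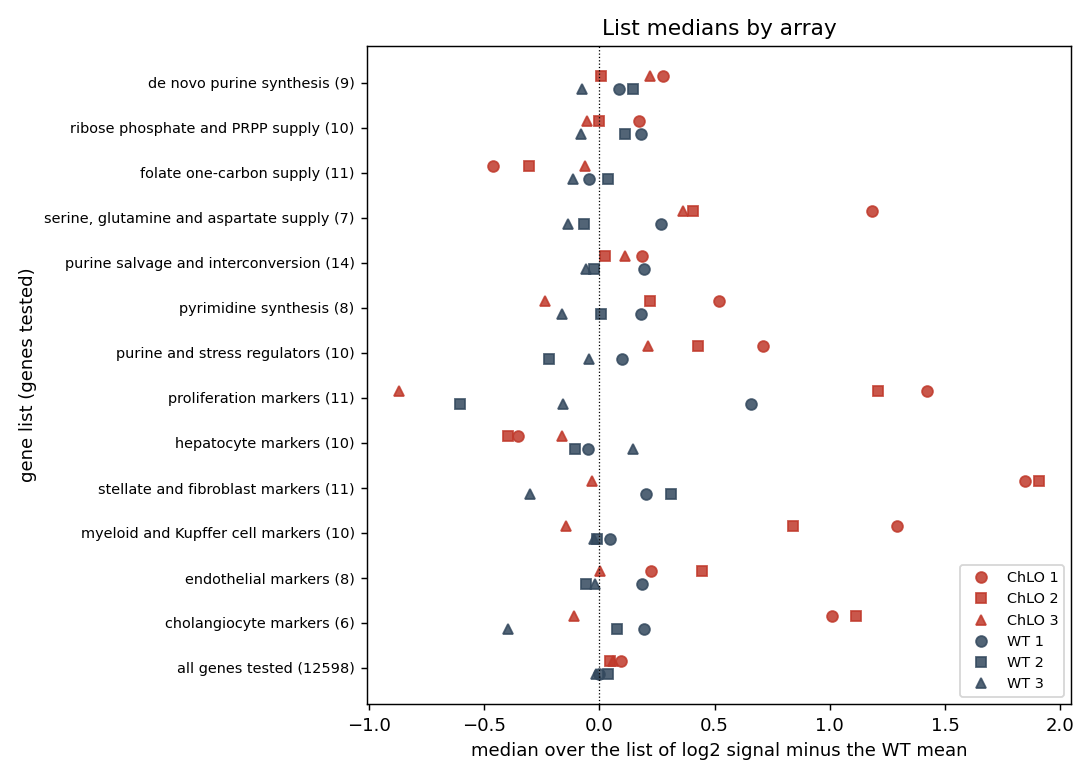
Median of log2 signal minus the WT mean, by array, over each gene list except the lymphocyte list, and over all genes tested. Red is ChLO, dark blue is WT and the shape gives the replicate number. The number of genes tested is in brackets. The purine list spans -0.07 to 0.28 over the 6 arrays, while stellate markers reach 1.85 and 1.91 in ChLO 1 and ChLO 2 and proliferation markers lie at -0.87 in ChLO 3.

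Genes that feed the pathway were read beside it. Of 10 tested genes of ribose phosphate and PRPP supply, 6 were higher and 4 lower with a median of 0.05 (5 and 5 with quantile normalization, 8 and 2 with spike-in scaling), and 0 passed. Prps2, a PRPP synthetase, had log2 signals of 10.392, 10.614 and 10.995 in ChLO livers, against 9.198, 10.046 and 9.553 in WT livers, a difference of 1.07 (SE 0.26, limma adjusted p = 0.371). Rpia, which makes ribose 5-phosphate, had log2 signals of 8.94, 8.97 and 8.35 in ChLO livers, against 10.29, 10.13 and 9.10 in WT livers, a difference of -1.09 (SE 0.34, limma adjusted p = 0.455). Neither gene overlapped between groups, as was so for 15.2% of all genes, and the differences of these 2 genes were of opposite sign. Tkt, transketolase, differed by -0.41.

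Of 11 tested genes that supply folate carbon, 8 were lower and 3 higher in ChLO with a median of -0.34 (7 and 4 with spike-in scaling), and 0 passed. Ftcd, which feeds formimino groups from histidine breakdown into folate, had log2 signals of 12.27, 12.90 and 13.52 in ChLO livers, against 13.52, 13.58 and 13.59 in WT livers, a difference of -0.67 (SE 0.29, limma adjusted p = 0.563). ChLO 3 was level with WT there, as it was for Paics. Mthfd2l, a mitochondrial folate dehydrogenase, differed by -0.59 and Mthfd1l, which releases formate from mitochondria, by 1.07.

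Of 7 tested genes that supply serine, glutamine and aspartate, 4 were higher and 3 lower (5 and 2 with quantile normalization or spike-in scaling), and 0 passed. Asns, asparagine synthetase, which consumes glutamine and aspartate, had log2 signals of 11.62, 9.80 and 8.52 in ChLO livers, against 8.29, 7.78 and 7.99 in WT livers, a difference of 1.96 (SE 0.67, limma adjusted p = 0.486). ChLO 1 was highest, as for Atic and Pfas. Got2, the mitochondrial aspartate aminotransferase, differed by -0.31 and Psat1, of serine synthesis, by 1.40 (SE 1.28).

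Of 14 tested genes of purine salvage and interconversion, 8 were higher and 6 lower with a median of 0.05 (7 and 7 with quantile normalization, 11 and 3 with spike-in scaling), and 0 passed. Dck, deoxycytidine kinase, which also salvages purine deoxynucleosides, had log2 signals of 10.48, 10.36 and 9.68 in ChLO livers, against 9.35, 9.26 and 9.32 in WT livers, a difference of 0.86 (SE 0.24, limma adjusted p = 0.431). Aprt, which returns adenine to AMP with PRPP, had log2 signals of 11.80, 10.95 and 11.19 in ChLO livers, against 10.30, 10.70 and 10.61 in WT livers, a difference of 0.78 (SE 0.25, limma adjusted p = 0.455). Ak4, a mitochondrial adenylate kinase, had log2 signals of 10.72, 11.19 and 11.78 in ChLO livers, against 12.70, 12.13 and 12.26 in WT livers, a difference of -1.13 (SE 0.29, limma adjusted p = 0.396). All 3 kept the groups apart, as did 15.2% of all genes.

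In pyrimidine synthesis, the parallel pathway, 5 of 8 tested genes were higher and 3 lower with a median of 0.28 (6 and 2 with spike-in scaling), and 0 passed. Uck1, a uridine and cytidine kinase, differed by -0.67 (SE 0.22), and the CTP synthases Ctps and Ctps2 by 0.64 (SE 0.40) and 0.42 (SE 0.27).

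Among 10 regulators, 8 were higher and 2 lower (6 and 4 with quantile normalization), and 0 passed. Myc, a transcription factor known to bind E-boxes of nucleotide synthesis genes, had log2 signals of 10.58, 9.87 and 9.16 in ChLO livers, against 7.73, 8.00 and 7.62 in WT livers. All 3 ChLO arrays lay above every WT array, a difference of 2.09 (SE 0.35, limma adjusted p = 0.167). ChLO 1, 2 and 3 stood in the same order as for Atic and Gart and in the reverse order for Paics and Ppat. Of these members, Atic and Paics had CACGTG in their windows, and Gart and Ppat did not. The part of Myc in the members' values was not tested. Atf3, a stress-induced factor, had log2 signals of 11.02, 11.58 and 7.19 in ChLO livers, against 7.71, 5.94 and 6.28 in WT livers, a difference of 3.29 (SE 1.07, limma adjusted p = 0.468). E2f1, a cell cycle factor, differed by 1.42 (SE 0.78).

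**Figure D5:**
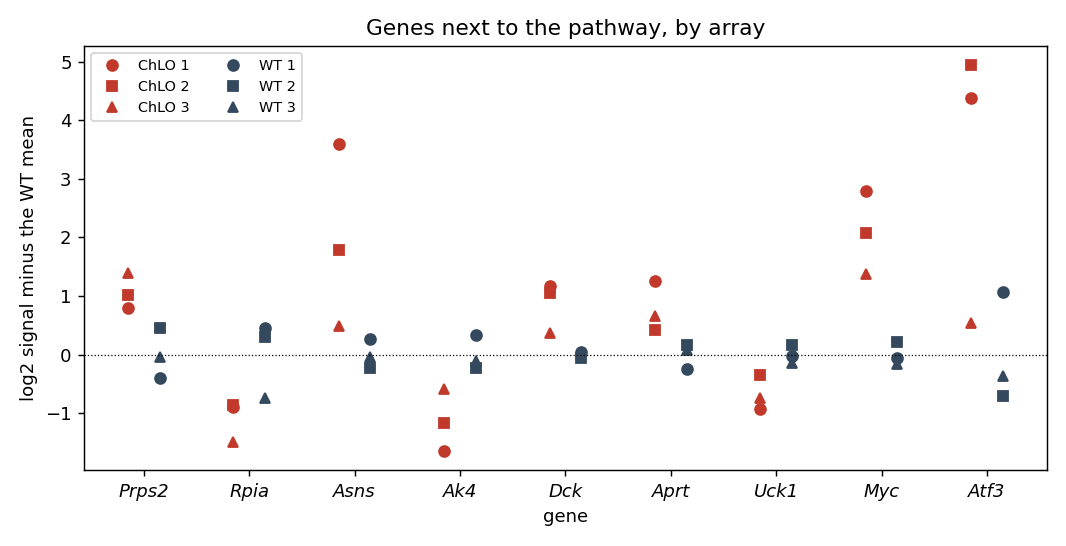
Log2 signal minus the WT mean, by array (red ChLO points left, dark blue WT points right). Shown are the 9 genes of the supply, salvage, pyrimidine and regulator lists with an unadjusted limma p under 0.05. Those lists held 10, 11, 7, 14, 8 and 10 tested genes in the order of the text, and 8.96% of all genes had such a p. The genes were chosen by p in these data, so the separation of their points is no separate result. Prps2, Asns, Dck, Aprt and Myc have all ChLO points above the WT points, Rpia, Ak4 and Uck1 have them below, and Atf3 overlaps.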

How the data were processed

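The authors deposited log2 signals from 6 Affymetrix arrays, and the submitters' processing notes list MAS5 without a version. The log2 scale was worked out from the values: on each array the linear signal averaged 500 after trimming 2% from each end, so a change common to most transcripts is hidden. Detection calls and scanner files were not used here, and the number of arrays limits precision.

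The 64 control probe sets were dropped, as were probe sets with a mean log2 signal under the 40th percentile, 5.50, leaving 27022. Names came from the platform's annotation, which gives 1 symbol for 34945 probe sets. For each gene the probe set with the brightest mean over the 6 arrays was used. ChLO and WT were compared with limma 3.58.1 in R 4.3.3 (eBayes with a trend, no block), two-sided, at a Benjamini-Hochberg adjusted p of 0.05. SE and intervals are limma's moderated ones. The procedure was tested on simulated data, where it recovered 23.1% of changes of 1 log2 unit and 69% of changes of 2. The difference of every member was smaller than 1 log2 unit. Members and 13 other lists were chosen with earlier results of these data known. The text names every member, Mlxipl and up to 3 genes of each other list with the smallest p, except the lymphocyte list. Endothelial, cholangiocyte, stellate and myeloid lists are given by their sums and list medians, without gene names.

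Array medians lay between 6.38 and 6.60 and correlations between arrays from 0.894 to 0.954. The labels call the mice of a group biological replicates. Deviations of same-numbered arrays correlated at 0.30, -0.17 and 0.06, so no pairing was assumed. Alternatives covered scaling, filter, variance model, array weights, probe set choice, a replicate block and leaving out each array.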

Additional observations from a re-analysis of the deposited data

How the results depend on the processing

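No member passed under any of the 16 alternatives run. Of 144 single member differences recomputed, 138 kept their sign and 6 did not, all of them of Ppat or Gmps, whose differences are near 0. Ppat became 0.17 with scaling to the spike-in controls and 0.042 when only probe sets unique to a transcript were kept, and ran from -0.25 to 0.14 (above 0 without ChLO 1) when an array was left out. Gmps became 0.22 with spike-in scaling and 0.0038 with array weights, and ran from -0.18 to 0.13 (above 0 without WT 2) when an array was left out. The median over the members, 0.25, became 0.50 with spike-in scaling, where the median of all genes moved by 0.25, and 0.051 with array weights, and ran from 0.043 (without WT 1) to 0.33 (without ChLO 2). Across all genes 0 were called by limma (1129 at an unadjusted p under 0.05). The count was 3 with no filter, 568 with array weights, 1 with the replicate block and 0 to 302 when an array was left out, with 302 without ChLO 3 and 4 without ChLO 1. Array weights put 4.58 on ChLO 2 and 0.37 on ChLO 3, and their estimation stopped before it converged. Of 27022 probe sets 8 were called, 17 with the replicate block and 0 to 378 when an array was left out (378 without ChLO 3, 6 without ChLO 1, 0 without any of the others). The block changed no member's call. With 3 mice a group the intervals of single members are wide, and the cause of these changes was not tested.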
